A study of Mus musculus with 6 samples.

Results

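The genes that make, break down and sense prostaglandin E2 (PGE2) were examined in CT26 tumors of mice given the kinase inhibitor H89 or NaCl. The set holds 9 named genes, Ptgs1, Ptgs2, Ptges, Ptges2, Ptger1, Ptger2, Ptger3, Ptger4 and Hpgd, of the 23557 genes in the table, and the rule that lists them uses no measured value. Of the 9 genes, 7 averaged 0.5 or more counts per 1000000 counts of a tumor (CPM) and were tested among 13118 genes, while Ptger3 and Hpgd lay under this level and are given by their counts only. CT26 is a colorectal carcinoma line of the BALB/c mouse strain. Each female BALB/c mouse, bought at 7 weeks of age, carried a subcutaneous tumor from 500000 CT26 cells, and received intraperitoneal NaCl or H89 at 10 mg/kg in NaCl, 2 times a week from day 6. Tumors were taken on day 14, with 3 tumors in the NaCl group and 3 in the H89 group, and total RNA of the whole tumor was sequenced. In such bulk samples, fewer cells of a type and less RNA per cell cannot be told apart.

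PGE2 is a lipid mediator made from arachidonic acid. The cyclooxygenases COX-1, encoded by Ptgs1, and COX-2, encoded by Ptgs2, turn arachidonic acid into prostaglandin H2, which the PGE synthases encoded by Ptges and Ptges2 convert into PGE2. COX-1 is known as the enzyme that many cells carry at rest, and COX-2 as the enzyme that inflammatory signals induce. PGE2 acts on the EP1, EP2, EP3 and EP4 receptors, encoded by Ptger1, Ptger2, Ptger3 and Ptger4. EP2 and EP4 raise cyclic AMP (cAMP), EP3 lowers it, and EP1 acts through calcium. Hydroxyprostaglandin dehydrogenase, encoded by Hpgd, starts the breakdown of PGE2. In colorectal cancer this pathway is known for COX-2 in the tumor and for the dampening of T and NK cells through EP2 and EP4. H89 is used as an inhibitor of protein kinase A, the kinase that cAMP switches on, and also acts on other kinases.

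The promoters of Ptgs2 and Ptger4 are shown because these 2 genes had the lowest and the highest log2 fold change of the set. Each line gives 280 bases on the gene's own strand, from 250 bases before the start of transcription to 30 bases after it, from RefSeq for GRCm38.p6. The Ptgs2 stretch lies at chr1:150099781-150100060 on the plus strand, and the Ptger4 stretch at chr15:5244158-5244437 on the minus strand. Capitals mark the letters CGTCA and CACGTG, which overlap in the Ptgs2 promoter.
Ptgs2: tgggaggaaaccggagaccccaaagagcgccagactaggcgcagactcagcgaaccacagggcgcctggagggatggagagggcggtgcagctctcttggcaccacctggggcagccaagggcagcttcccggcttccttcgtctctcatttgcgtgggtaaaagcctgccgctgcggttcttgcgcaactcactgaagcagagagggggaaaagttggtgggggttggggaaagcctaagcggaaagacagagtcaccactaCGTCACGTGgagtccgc
Ptger4: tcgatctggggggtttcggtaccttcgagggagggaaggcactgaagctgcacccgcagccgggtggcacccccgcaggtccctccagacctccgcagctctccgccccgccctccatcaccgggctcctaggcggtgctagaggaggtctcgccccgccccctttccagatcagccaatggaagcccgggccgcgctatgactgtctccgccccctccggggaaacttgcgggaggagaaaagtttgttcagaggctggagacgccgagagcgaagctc
The letters CGTCA, with their reverse complement TGACG, form the half-site of the cAMP response element. In Ptgs2 they lay at positions 14 to 18, counted from 1 at the start of transcription annotated in RefSeq. The start was not measured in these tumors. CACGTG, the E-box, lay at positions 17 to 22. Both strands were searched over 300 bases, from 250 before to 50 after the start. The half-site was found in 20.8% of 32851 mouse promoters, and in 1 of the 8 genes of the set that had a promoter entry. An E-box was found in 7.15% of the promoters and in 2 of the 8, Ptgs2 and Ptges2. The full cAMP response element TGACGTCA was found in 1.79% of the promoters and in 0 of the 8. These matches describe the letters of the window only, and none was found in the Ptger4 promoter.

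The total count per tumor ranged from 27067349 to 31958793, so that 3 counts, taken as the limit of what a count of 0 allows, corresponded to 0.0939 to 0.111 CPM. Intervals and limits given here cover counting error only. The labels give each tumor a number and no batch or date, and p-values measure the spread between these tumors. Epithelial markers were checked against the carcinoma label: the summed CPM of 7 markers was 11.5 to 25.8 and came mostly from Krt18, at 7.98 to 23.1 CPM. Epcam was at 0 in NaCl tumor 3, at 1.16 CPM in H89 tumor 1 and at most 0.097 CPM in the others. H89 tumor 1 was also the highest in Krt8 (2.14 CPM), Krt19 (2.49 CPM), Cldn4 (0.631 CPM, with 0 in the others) and Cldn7 (0.42 CPM), but not in Krt18 or Cdh1. The same tumor stood apart in skeletal muscle markers, with a summed 19.3 CPM over 7 genes against 0.932 to 2.34 CPM in the other 5 tumors. Over all tested genes the median log2 fold change was 0.004.

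Per length of transcript, the 4 genes of PGE2 synthesis were above both receptor genes that raise cAMP in every tumor, with the lowest value of Ptges2 at 4.38 CPM per kb and the highest of Ptger4 at 2.67. Ptgs1 had the highest level, with 61.7 ± 3.72 CPM per kb in NaCl tumors and 54.8 ± 4.86 in H89-treated tumors (SD, n = 3). Ptges followed with 47.3 ± 5.09 and 41.7 ± 0.469 CPM per kb, and Ptgs2 with 27.5 ± 10.7 and 18.8 ± 9.61 CPM per kb. Over the 6 tumors Ptgs1 ran from 49.2 to 64.1 CPM per kb and overlapped with Ptges, at 41.2 to 52.9, while Ptgs2, at 12.1 to 39.6, lay below both. Ptger1 was the most abundant receptor gene, with 6.75 ± 0.387 and 7.33 ± 0.415 CPM per kb, and Ptges2 had 5.17 ± 0.255 and 4.55 ± 0.166 CPM per kb. Ptger4 had 1.18 ± 0.306 and 2.09 ± 0.503 CPM per kb. The last 3 genes were Ptger2, at 0.209 ± 0.0828 and 0.303 ± 0.0819 CPM per kb, Hpgd, at 0.165 ± 0.108 and 0.267 ± 0.132, and Ptger3, at 0.0445 ± 0.0498 and 0.048 ± 0.0191.

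**Figure D1:**
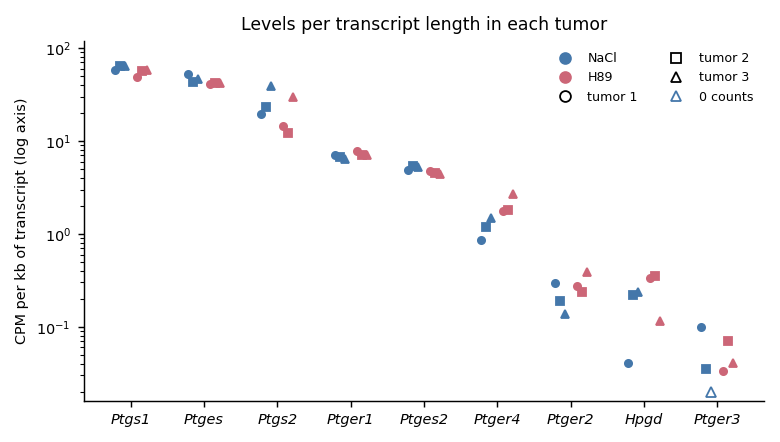
Level of each gene in each tumor, in CPM per kb of the longest annotated coding transcript, on a log axis. Colors mark the group and symbols the tumor number, and an open triangle stands for the 0 counts of Ptger3 in NaCl tumor 3. The 3 most abundant genes encode enzymes of PGE2 synthesis, and Ptger2, Hpgd and Ptger3 lie at the bottom in every tumor.

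The order of the 6 most abundant genes was the same in all 6 tumors, whichever treatment they had received. Ptgs1 exceeded Ptges within each tumor, although their ranges across tumors overlapped, and from Ptges down to Ptger2 the range of each gene lay apart from that of the next. Below Ptger4 the order changed from tumor to tumor, and Hpgd was above Ptger2 in 4 of the 6 tumors. The ranges of Ptger2 and Hpgd overlapped, as did those of Hpgd and Ptger3, so that these neighbours did not differ beyond the spread between tumors. On this scale the ratio of Ptgs1 to Ptgs2 was 2.91, 2.77 and 1.60 in NaCl tumors 1 to 3 and 3.37, 4.76 and 1.94 in H89-treated tumors 1 to 3. The ratio of Ptges to Ptges2 was steadier, from 7.98 to 10.8 in NaCl tumors and from 8.75 to 9.49 in H89-treated tumors. The ratio of Ptger4 to Ptger2 was 2.89, 6.26 and 10.8 in NaCl tumors and 6.46 to 7.63 in H89-treated tumors. All 3 ratios overlapped between the groups.

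No gene of the set passed the test between H89-treated and NaCl tumors. With edgeR's quasi-likelihood test and Benjamini-Hochberg adjustment over all genes tested, 0 of the 7 genes had an adjusted p under 0.05, where 1.59% of the 13118 genes did (208 genes, of which 113 had a higher and 95 a lower level with H89). At an unadjusted p under 0.05 the test gave 1 of 7 genes as higher, Ptger4, where 13.1% of all genes were, and 3 of 7 as lower, Ptgs1, Ptges and Ptges2, where 11.9% of all genes were. DESeq2, run as an alternative without the filter, also called 0 of the 7, where it called 1392 of 18837 genes. The CPM of all 3 H89-treated tumors lay above all 3 NaCl tumors for 1 of 7 genes, Ptger4, where this held for 20.5% of all genes. It lay below for 2 of 7 genes, Ptges and Ptges2, where this held for 10.0% of all genes. After scaling by the TMM factors of edgeR, which correct the library sizes for composition, the groups were apart for 1 of 7 genes upward and 3 of 7 downward, with Ptgs1 added, where 15.2% and 15.5% of all genes were. The median log2 fold change of the 7 genes was -0.24, with 3 values above 0 and 4 below.

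**Figure D2:**
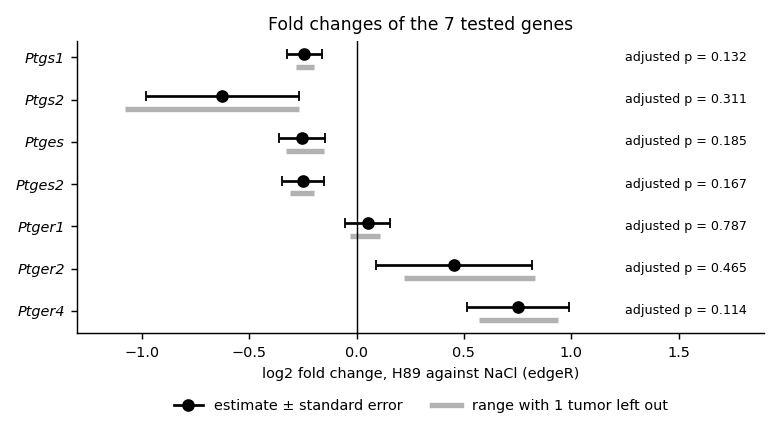
Log2 fold change of H89 against NaCl for the 7 tested genes, from edgeR's quasi-likelihood test, with the standard error as a bar and the adjusted p at the right. Grey bars span the values obtained when tumors were omitted singly. The 4 synthesis genes lie below 0 and Ptger2 and Ptger4 above it, and 0 of the 7 adjusted p-values is under 0.05.

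Ptgs1 (ENSMUSG00000047250, chr2:36230426-36252272, plus strand, GRCm38), which encodes COX-1, was at 165, 184 and 182 CPM in NaCl tumors 1 to 3 and at 141, 164 and 166 CPM in H89-treated tumors 1 to 3. The groups touched, since H89 tumor 3 lay just above NaCl tumor 1. On the TMM-scaled CPM the values were 172, 186 and 186 against 144, 160 and 156, and they no longer overlapped. The log2 fold change in edgeR's quasi-likelihood test was -0.24 with a standard error of 0.08 (adjusted p = 0.132). The group means of log2(CPM + 0.5) were also compared by exact permutation, two-sided, which gave p = 0.2, where 0.1 is the smallest p that 3 tumors against 3 allow. H89 tumor 1, the lowest in Ptgs1, was the tumor with the high skeletal muscle markers and the highest Epcam, Krt19 and Cldn4. The part of these markers in the result was not tested. Without that tumor the log2 fold change was -0.20.

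Ptgs2 (ENSMUSG00000032487, chr1:150100031-150108227, plus strand), which encodes the inducible COX-2, had the largest within-group spread on the log2 scale of the 7 genes tested. It was at 87.7, 103 and 176 CPM in NaCl tumors 1 to 3 and at 64.9, 53.7 and 133 CPM in H89-treated tumors 1 to 3. In each group tumor 3 was far above the other two, and its level in the H89 group exceeded that of NaCl tumors 1 and 2. The means were 122 ± 47.5 and 83.8 ± 42.8 CPM (SD, n = 3), a coefficient of variation of 38.8% and 51.1%. Its within-group SD was 0.61, above that of 97.4% of the tested genes and of 98.8% of the 3526 genes within 2-fold of its level. The counts behind these values, 1717 to 4921 per tumor, gave 95% Poisson intervals of 51.2 to 56.3 CPM for the lowest tumor and 172 to 181 CPM for the highest, so that counting error was small beside the spread.

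For Ptgs2 the log2 fold change was -0.63 with a standard error of 0.36 (edgeR's quasi-likelihood test, adjusted p = 0.311). An exact permutation test gave p = 0.3. The value rested on single tumors: it was -1.08 without H89 tumor 3 and -0.27 without NaCl tumor 3. Of 12 genes listed as inflammatory genes often measured with COX-2, 6 (Il1a, Il1b, Cxcl1, Cxcl2, Cxcl5 and Csf3) were also highest in tumor 3 of each group, where this held for 2624 of the 13118 genes tested. The other 6 (Il6, Tnf, Ccl2, Vegfa, Arg1 and Nos2) were not. Csf3, at 0 to 0.430 CPM, lay under the filter and is not among the 13118. Il1b, Cxcl1 and Cxcl2 are given as examples chosen after their values were seen. Il1b, an inflammatory cytokine, was at 17.4, 16.6 and 25.9 CPM in NaCl tumors and 7.43, 11.0 and 28.0 CPM in H89-treated tumors. Cxcl1, a chemokine that draws neutrophils, was at 8.12, 6.87 and 36.6 CPM and at 5.57, 3.32 and 21.1 CPM. Cxcl2, a related chemokine, was at 2.24, 0.554 and 3.94 CPM and at 0.771, 0.188 and 2.29 CPM. None of these 3 genes passed the test (edgeR, adjusted p = 0.531, 0.529 and 0.432). The summed CPM of 10 neutrophil markers, 32.3 to 45.9 in all tumors but H89 tumor 3, which had 54.9, did not follow the same order, with most of the sum from Mmp9 and Csf3r. Of the 10 markers 4 were highest in tumor 3 of each group, S100a8, S100a9, Csf3r and Retnlg. Retnlg, at 0 to 0.143 CPM, was near the limit of 3 counts, so its order is uncertain. S100a9, an alarmin of neutrophils and other myeloid cells, was at 1.62, 1.26 and 4.12 CPM in NaCl tumors and at 0.420, 0.219 and 3.98 CPM in H89-treated tumors. The part of neutrophils in the Ptgs2 values was not tested.

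**Figure D3:**
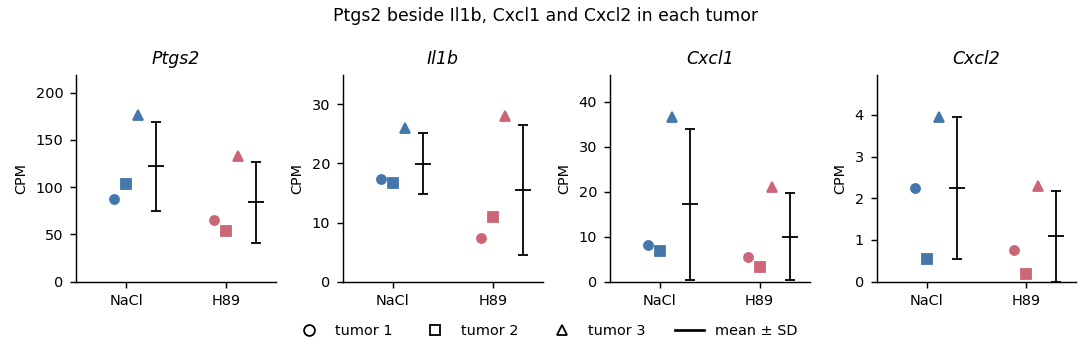
CPM of Ptgs2, Il1b, Cxcl1 and Cxcl2 in each tumor, by group, with the mean and SD at the right of each group and bars drawn down to 0 where the SD reaches below it. Symbols mark the tumor number. Tumor 3 of each group has the highest value of its group in all 4 panels, and the groups overlap in each.

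Ptges (ENSMUSG00000050737, chr2:30889471-30929863, minus strand), the inducible microsomal PGE synthase that works with COX-2, was at 193, 156 and 168 CPM in NaCl tumors and at 150, 154 and 152 CPM in H89-treated tumors. The H89 values were tightly grouped and all below the NaCl values, with means of 152 ± 1.71 and 172 ± 18.6 CPM (SD, n = 3). Its log2 fold change was -0.25 with a standard error of 0.11 (edgeR's quasi-likelihood test, adjusted p = 0.185), and the exact permutation test gave 0.1, its smallest p. Without NaCl tumor 1, the highest, the log2 fold change was -0.15. The summed CPM of 7 platelet markers was also highest in NaCl tumor 1. It was 47.3, 31.2 and 36.8 in NaCl tumors and 23.5, 27.5 and 23.3 in H89-treated tumors. Its largest part was Pf4, at 30.3, 18.9 and 24.9 CPM against 10.3, 15.4 and 9.73 CPM. The next, Itga2b, overlapped, at 10.1, 8.05 and 7.86 CPM against 7.92, 8.14 and 9.99 CPM. Pf4 and Ppbp were lower in every H89-treated tumor, 2 of the 5 tested, where 10.0% of all genes were. The part of platelets in the Ptges values was not tested. Of the 5 platelet markers tested, 0 were called, 4 had a log2 fold change below 0, and none of the 7 was at 0 in all tumors.

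Ptges2 (ENSMUSG00000026820, chr2:32395896-32405772, plus strand), a membrane-associated PGE synthase found in many tissues, was at 24.3, 26.7 and 26.2 CPM in NaCl tumors and at 23.5, 22.7 and 21.8 CPM in H89-treated tumors. All 3 H89 values were below the NaCl values, though H89 tumor 1 and NaCl tumor 1 lay within counting error, with 95% Poisson intervals of 21.7 to 25.3 and 22.6 to 26.2 CPM. Its tumors were among the most alike of any gene, with a within-group SD of 0.06 on the log2 scale, larger than that of 6.05% of the genes tested. The log2 fold change was -0.25 with a standard error of 0.10 (edgeR's quasi-likelihood test, adjusted p = 0.167), and the exact permutation p was 0.1. It ranged from -0.31 to -0.20 when tumors were omitted singly. The log2 fold changes of Ptgs1, Ptges and Ptges2 were thus close to each other, from -0.25 to -0.24, while the spread of Ptgs2 was much wider.

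**Figure D4:**
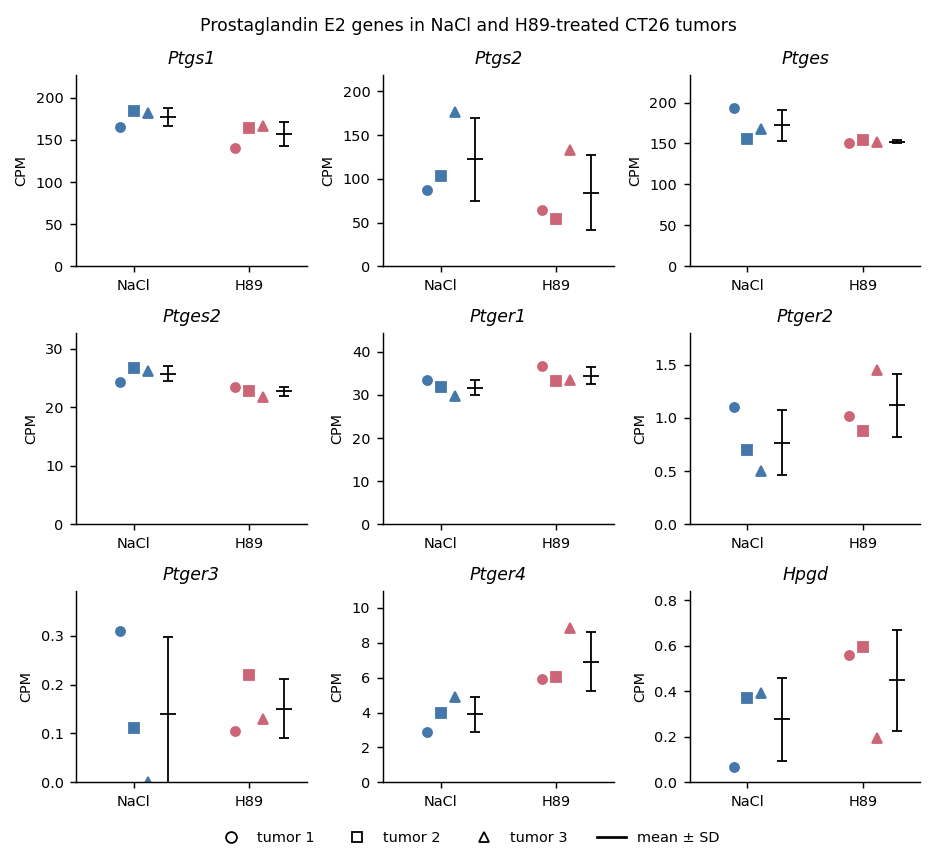
CPM of the 9 genes in each NaCl and H89-treated tumor, on axes that start at 0, with the mean and SD (n = 3) beside each group and bars cut at 0. Symbols mark the tumor number. The groups are apart for Ptges, Ptges2 and Ptger4 and overlap for the other 6 genes.

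Among the receptors, Ptger4 (ENSMUSG00000039942, chr15:5206661-5244187, minus strand), which encodes EP4, a receptor on T cells, macrophages and many other cells, had the largest log2 fold change. Its counts were 83, 107 and 136 in NaCl tumors and 168.4, 192 and 273.5 in H89-treated tumors, or 2.86, 3.95 and 4.88 CPM against 5.90, 6.01 and 8.84 CPM. All 3 H89-treated tumors were above the NaCl tumors. The 95% Poisson intervals of NaCl tumor 3, 4.09 to 5.77 CPM, and H89 tumor 1, 5.04 to 6.86 CPM, overlapped, so that the gap between the nearest tumors was within counting error. The means were 3.90 ± 1.01 and 6.92 ± 1.67 CPM (SD, n = 3). The log2 fold change was 0.75 with a standard error of 0.24 (edgeR's quasi-likelihood test, unadjusted p = 0.0136, adjusted p = 0.114), and the exact permutation test gave 0.1. With Benjamini-Hochberg adjustment, the adjusted p lay between 0.0508, in DESeq2, and 0.251 under the alternatives tried. Without H89 tumor 3 the log2 fold change was 0.57, and without NaCl tumor 3 it was 0.94. Of the 6648 exonic bases of Ptger4 in GENCODE M21, 1015 lie over the pseudogene Gm15937 and 82 over Ttc33, both on the other strand. Whether the counting used strand is not given in the sources used here. The counts of Ptger4 lay up to 0.453 from a whole number, as where reads are divided between features, and its level is to that extent uncertain.

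Ptger2 (ENSMUSG00000037759, chr14:44988195-45003820, plus strand), which encodes EP2, was near the lower limit of the test. Its counts were 32, 19 and 14 in NaCl tumors and 29, 28 and 45 in H89-treated tumors, or 1.10, 0.702 and 0.502 CPM against 1.02, 0.876 and 1.45 CPM. The groups overlapped, with NaCl tumor 1 above H89 tumors 1 and 2. H89 against NaCl gave a log2 fold change of 0.45 with a standard error of 0.36 (edgeR's quasi-likelihood test, adjusted p = 0.465), and an exact permutation test gave p = 0.3. It was 0.83 without NaCl tumor 1, and 0.09 under quantile normalization with limma. The exons of Ptger2 share 246 bases with the antisense gene Gm17173 and 144 with Gm49364.

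Markers of T and NK cells, which carry EP2 and EP4, are given beside these 2 receptor genes. The summed CPM of 8 T cell markers was 33.1, 19.7 and 14.9 in NaCl tumors and 52.2, 31.3 and 78.2 in H89-treated tumors, with none of the markers at 0. All 8 markers had a log2 fold change above 0, with a median of 1.24, 0 of them were called and 5 were higher at an unadjusted p under 0.05 in edgeR's test, as were 13.1% of all genes. The summed CPM of 7 NK cell markers was 61.9, 40.9 and 13.1 in NaCl tumors and 71.4, 43.7 and 123 in H89-treated tumors. Most of this sum came from Gzma and Prf1, and 1 of the 7 markers was at 0 in every tumor. The 6 tested markers all had a log2 fold change above 0. Of these, 0 were called and 3 were higher at an unadjusted p under 0.05 in edgeR's test. H89 tumor 3 was highest, and NaCl tumor 3 lowest, in Ptger2 and in both marker sums. For Ptger4 the lowest tumor was NaCl tumor 1, which held more T cell marker RNA than the other NaCl tumors. Macrophage markers, summed over 10 genes, were at 1180, 2030 and 1790 CPM in NaCl tumors and at 1700, 1720 and 2080 CPM in H89-treated tumors. Their lowest tumor, NaCl tumor 1, and their highest, H89 tumor 3, were also those of Ptger4. Unlike Ptger4, they were higher in NaCl tumors 2 and 3 than in H89 tumors 1 and 2. Fibroblast markers, summed over 9 genes and mostly Col1a2, were at 2680, 2600 and 2490 CPM in NaCl tumors and at 3560, 3540 and 3030 CPM in H89-treated tumors, with no overlap. Of these 9 markers 8 had a log2 fold change above 0, and 0 were called. The part of these cell types in the values of Ptger2, Ptger4 and the other genes of the set was not tested.

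**Figure D5:**
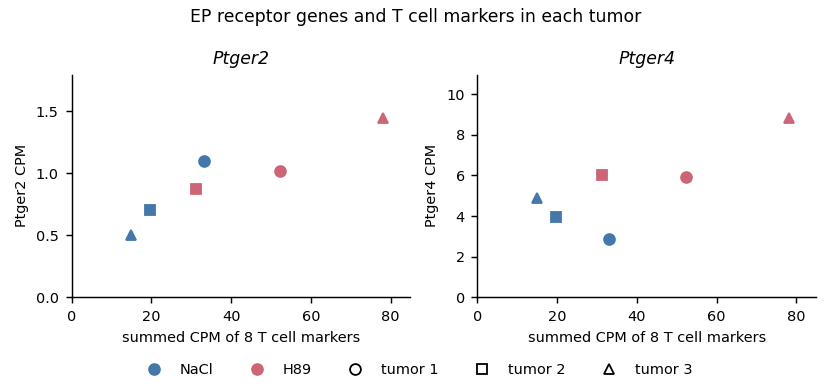
CPM of Ptger2 (left) and Ptger4 (right) against the summed CPM of 8 T cell markers in each tumor. Colors mark the group and symbols the tumor number. H89 tumor 3 is at the top right in both panels, with 78.2 marker CPM, and NaCl tumor 1 is the lowest for Ptger4 at 2.86 CPM.

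Ptger1 (ENSMUSG00000019464, chr8:83666678-83672753, plus strand), which encodes EP1, was at 33.4, 31.9 and 29.8 CPM in NaCl tumors and at 36.7, 33.2 and 33.4 CPM in H89-treated tumors. H89 tumor 1 was the highest and the other tumors overlapped. Its log2 fold change was 0.05 with a standard error of 0.10 (edgeR's quasi-likelihood test, adjusted p = 0.787), and its sign turned without H89 tumor 1, to -0.029. Its estimated counts lay up to 0.388 from a whole number, as for Ptger4, and its level, including its place as the most abundant receptor gene, is uncertain.

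Ptger3 and Hpgd were barely detected. Ptger3 (ENSMUSG00000040016, chr3:157566892-157645888, plus strand), which encodes EP3, had 9, 3 and 0 counts in NaCl tumors and 3, 7 and 4 in H89-treated tumors. The 0 in NaCl tumor 3 allows up to 0.108 CPM. The highest tumor, NaCl 1, had 0.310 CPM with a 95% Poisson interval of 0.142 to 0.588. Hpgd (ENSMUSG00000031613, chr8:56294585-56321043, plus strand), which encodes the enzyme that inactivates PGE2, had 2, 10 and 11 counts in NaCl tumors and 16, 19 and 6 in H89-treated tumors, or 0.0688, 0.369 and 0.394 CPM against 0.560, 0.595 and 0.194 CPM. The groups overlapped for both genes, and neither entered edgeR's test, since both lay under the filter.

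Over the 5 lists of other steps of the pathway and its neighbours, 1 of 41 tested genes was called, or 2.44%, close to the 1.59% of all genes. Of 12 genes for other PGE2 steps and neighbouring prostaglandin synthases, all 12 were tested, 0 were called and the median log2 fold change was 0.002. The 2 with the smallest p were Tbxas1, the thromboxane synthase, and Ptges3, the cytosolic PGE synthase and chaperone partner. Tbxas1 was at 14.3, 15.4 and 14.0 CPM in NaCl tumors and at 18.6, 20.7 and 30.7 CPM in H89-treated tumors, with a log2 fold change of 0.60 ± 0.17 (SE; edgeR, adjusted p = 0.0963). The H89-treated tumors were all above the NaCl tumors for Tbxas1, and DESeq2 gave an adjusted p of 0.0273. Ptges3 was the most abundant PGE synthase gene per library, at 247 to 263 CPM in NaCl tumors and 231 to 249 CPM in H89-treated tumors, a scale that does not correct for length, with a log2 fold change of -0.17 (edgeR, adjusted p = 0.258).

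Of 17 genes for the release of arachidonic acid, 13 were tested and 1 was called, Pla2g2e, a secreted phospholipase, which fell by 1.77 on the log2 scale with a standard error of 0.33 (edgeR's quasi-likelihood test, adjusted p = 0.0488). It was at 1.38, 1.37 and 2.12 CPM in NaCl tumors and at 0.595, 0.532 and 0.356 CPM in H89-treated tumors, with no overlap. The H89 values lay around the filter of 0.5 CPM, which Pla2g2e passed on its NaCl values. The call was lost with any 1 tumor left out, where at most 12 of the 13118 genes were called at all. This loss is therefore not particular to Pla2g2e. The call was also lost under upper quartile normalization and with the replicate block, while DESeq2 gave an adjusted p of 0.00354. Other phospholipases of the list had values in the opposite direction, named here after they were seen. Pla2g4b, a cytosolic phospholipase, was at 0.559, 0.306 and 0.725 CPM in NaCl tumors and at 1.87, 2.01 and 1.64 CPM in H89-treated tumors, with a log2 fold change of 1.74 ± 0.34 (SE; edgeR, adjusted p = 0.0513). Pla2g2d, a secreted phospholipase, had 1.69 ± 0.43 (SE; edgeR, adjusted p = 0.0800), and Pla2g4c had 0.93 (edgeR, adjusted p = 0.1003). The CPM of H89-treated tumors lay above all NaCl tumors for 4 of the 13 genes and below them for 2. Over all tested genes these shares were 20.5% and 10.0%, so counts of this size are near the share of all genes. Summed keratinocyte markers followed the same groups, at 44.1, 52.9 and 72.1 CPM in NaCl tumors and 18.1, 15.5 and 17.1 CPM in H89-treated tumors. Nearly all of that sum was Cdsn, which was called lower, while the basal keratins Krt5 and Krt14 were at most 0.105 and 0.172 CPM. Other markers of the list went the other way. Krt10, also tested, had a log2 fold change of 0.31 (edgeR, adjusted p = 0.465). Trp63 was at 0.172, 0.259 and 0.323 CPM in NaCl tumors and at 0.525, 1.06 and 0.614 CPM in H89-treated tumors. The part of skin in the Pla2g2e result was not tested. The median of the 13 genes was -0.02.

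Of 5 receptors for other prostanoids, 3 were tested and 0 were called, with a median log2 fold change of -0.10. Ptgdr, a receptor for prostaglandin D2, was at 0.975, 1.15 and 1.37 CPM in NaCl tumors and at 0.0704, 0.315 and 0.521 CPM in H89-treated tumors. These groups did not overlap, and the log2 fold change was -2.0 ± 0.50 (SE; edgeR, adjusted p = 0.0800). DESeq2 gave an adjusted p of 0.019. Ptgdr passed the filter of 0.5 CPM on its NaCl values. H89 tumor 1 lay under the limit of 3 counts, 0.105 CPM in that tumor, so the size of the fall is uncertain. Tbxa2r, the thromboxane receptor, had a log2 fold change of 0.42 (edgeR, adjusted p = 0.473).

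In the leukotriene and lipoxygenase branch, the other main fate of arachidonic acid, 0 of 8 tested genes of 12 were called, with a median log2 fold change of -0.11. Alox12, a lipoxygenase, was at 0.323 to 0.569 CPM in NaCl tumors and 0.981 to 1.09 CPM in H89-treated tumors, with a log2 fold change of 1.09 ± 0.30 (SE; edgeR, adjusted p = 0.0911). Cysltr1, a leukotriene receptor, had 0.54 (edgeR, adjusted p = 0.270). Of 6 G protein genes through which the EP receptors signal, 5 were tested and 0 were called, with a median of -0.11. Gnai2, which lowers cAMP, was at 903, 876 and 750 CPM in NaCl tumors and 696, 701 and 695 CPM in H89-treated tumors. Its H89 values were all below the NaCl values, with a log2 fold change of -0.34 ± 0.10 (SE; edgeR, adjusted p = 0.101) and an adjusted p of 0.0162 in DESeq2. Gnaq, which acts through calcium, had 0.13 (edgeR, adjusted p = 0.370).

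Of the 12 inflammatory genes named beside Ptgs2, 10 were tested and 0 were called, with a median log2 fold change of 0.09. Those with the smallest p were Ccl2 and Tnf. Ccl2, a chemokine for monocytes, was at 136, 128 and 109 CPM in NaCl tumors and at 199, 151 and 228 CPM in H89-treated tumors, all above the NaCl tumors. Its log2 fold change was 0.56 ± 0.16 (SE; edgeR, adjusted p = 0.0959), with an adjusted p of 0.0161 in DESeq2. Tnf, an inflammatory cytokine, had 0.40 (edgeR, adjusted p = 0.241).

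For each tested gene of the set, the 3 genes with the most similar pattern over the 6 tumors were taken by Pearson's r of log2(CPM + 0.5). With 6 points and 13118 genes such values are high by selection, and they are given as a description. Ptgs1 was most like Hnrnpa3 (r = 0.99), Dhrs9 and Apoc2. Ptgs2 was most like Srp54c (r = 0.99), Hyou1 and Nfyb, and Ptges was most like Maf1 (r = 0.99), Cd300lb and Yif1b. Only 71 genes reached r over 0.9 with Ptges and 83 with Ptgs2, against 508 with Ptger4.

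Srp54c and Hyou1 varied much less than Ptgs2 did, from 45.5 to 61.6 CPM and from 136 to 170 CPM. Ptges2 was most like Phb2, Smyd5 and Lypd5, and Ptger1 was most like Kifc2, Syvn1 and Entpd7 (r = 0.99 or above). Ptger2 was most like Fasl (r = 0.99), Irak2 and Tmppe. Fasl, the death ligand of T and NK cells, was at 1.58, 0.813 and 0.394 CPM in NaCl tumors and 1.44, 1.16 and 3.17 CPM in H89-treated tumors, with the order of Ptger2 in every tumor. Ptger4 was most like Gphn, Rbm6 and Sec23b, and Gphn was at 26.3, 28.9 and 31.5 CPM in NaCl tumors and 33.5, 34.5 and 39.2 CPM in H89-treated tumors.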

How the data were processed

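Total RNA of 6 CT26 tumors was sequenced by BGI. Per the submitters' processing notes, kallisto, DESeq2 and GRCm38 were used, with no roles given. The authors deposited 1 table of 23557 genes that is called TPM. It has 1 row per tumor, and the rows sum to 27067349 to 31958793. Of the values above 0, 58.6% to 61.4% lie within 0.01 of a whole number. The deposited values were therefore read as estimated counts, not scaled for depth or length. Of the genes, 4612 were at 0 in every tumor. The genes of the set, the gene lists and the tests were chosen with earlier results of these data known.

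Counts were rounded. The 13118 genes averaging 0.5 CPM or more entered edgeR 4.0.16 (R 4.3.3, TMM, glmQLFit, glmQLFTest, treatment as the only term, Benjamini-Hochberg adjustment), and the fit was tested on simulated data. The SE is the log2 fold change over the square root of the F statistic. CPM is the count per 1000000 counts of the tumor. Levels per kb used the longest coding transcript in GENCODE M21, which also gave positions and overlaps. Intervals are exact 95% Poisson intervals of the deposited counts. Named besides the set were, per member, the 3 most similar genes and, per pathway list, called genes or else the 2 with the smallest p. Alternatives were no filter, 5 CPM, median ratio and upper quartile normalization, quantile normalization with limma 3.58.1, limma-trend, DESeq2 1.42.0, Bonferroni correction, a replicate block, the shortest transcript, and leaving out each tumor. Promoters were from RefSeq, with no entry for Ptger1. Groups came from the sample labels. A result that bears on the Ptger1 counts is not reported here.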

Additional observations from a re-analysis of the deposited data

How the results depend on the processing

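The number of genes of the set called at an adjusted p under 0.05 was 0 under every alternative that was run. The number called among all genes was 208 of 13118 with edgeR and depended on the method. It was 80 under quantile normalization with limma and 0 with Bonferroni correction. DESeq2, run without the filter on 18837 genes, called 1392. With 1 tumor left out the number was 0 to 12. It was 0 without NaCl tumor 2, NaCl tumor 3, H89 tumor 1 or H89 tumor 2. It was 2 without NaCl tumor 1 and 12 without H89 tumor 3. Deviations of same-numbered tumors correlated over genes at 0.16, 0.06 and -0.03, and not every tumor correlated best with its own number. The main test used no pairing. With 3 tumors per group these values cannot decide whether the numbers pair the tumors. With the replicate block 0 genes were called, and the adjusted p was 0.071 for Ptgs2 and 0.0804 for Ptger4. The number of genes of the set whose groups did not overlap was 3, or 4 after TMM scaling, and 3 to 6 with 1 tumor left out (6 without NaCl tumor 1, 5 without H89 tumor 3), where 37.4% to 47.5% of all genes did not overlap. The log2 fold change of Ptger1 ranged from -0.029, without H89 tumor 1, to 0.11 with 1 tumor left out. Of 97 alternative fold changes of the set, 96 kept their sign and their side of the threshold. Of 150 for the other named genes, 138 did, 4 passed the threshold in DESeq2 only (Ccl2, Gnai2, Ptgdr, Tbxas1), and 8, all of Pla2g2e, lost the call. Ptger2 had no value at 5 CPM. Counts of Ptger2 were 14 to 45 per tumor, and counting error weighs most on it among the 7 genes of the set that were tested.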
